A study of Mus musculus with 6 samples.

Results

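The 10 chemokine genes described here were Cxcl1, Cxcl2, Cxcl5, Cxcl9, Cxcl10, Ccl2, Ccl7, Ccl28, Cx3cl1 and Cxcl16. They were taken by gene symbol from a table of 30330 genes, and TPM, a length-normalised transcript abundance, was summed over the transcripts of each symbol. RNA came from whole colons of male mice of 12 weeks. There were 3 wild-type mice and 3 mice with the genotype Tnfrsf1a-/-, which lack tumour necrosis factor receptor 1 (TNFR1), and every sample is labelled as strain C57Bl/6J. No treatment is named for either genotype. The part of Tnfrsf1a that was removed, and whether the genotypes were littermates, are not given in the sources used here.

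Chemokines are small secreted or membrane-bound proteins that direct leukocyte migration through G protein-coupled receptors. TNF acting on TNFR1 is a classical inducer of several of them through NF-κB, and interferon-γ induces others. In the colon some chemokines are made by resting epithelium, while most inflammatory ones are made in quantity only after injury, infection or cytokine exposure.

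The targeted gene was read first. The full-length Tnfrsf1a transcript ENSMUST00000032491 measured 67.6, 39.9 and 59.1 TPM in wild-type colon and 23.5, 20.4 and 25.6 TPM in knockout colon, so every knockout library lay below every wild-type library. The gene total overlapped between genotypes, at 71.2, 44.1 and 63.0 TPM in wild-type colon and 49.2, 36.5 and 46.9 TPM in knockout colon, although after the scaling described below it did not overlap (62.9, 56.2 and 57.4 against 46.4, 39.8 and 43.98 TPM). A further transcript, ENSMUST00000125880, went the other way and was part of the knockout total, with wild-type libraries at 1.20, 1.20 and 0.89 TPM and knockout libraries at 18.0, 12.4 and 14.1 TPM. In wild-type replicate 2, transcripts with no gene name held 27.4% of all TPM, against 1.86 to 7.23% in the other 5 libraries. Less of the TPM total was thus left for named genes in that library, and its median-of-ratios factor was 0.786 where the others ran from 0.918 to 1.13. TPM divided by these factors is called scaled below. Markers of colon epithelium were abundant in every library (10 genes summing to 6429 TPM or more).

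Promoter sequence is shown for the members in which NF-κB-type letters were found and for Ccl28, the member whose TPM as deposited separated the genotypes without overlap. RefSeq promoter windows of build GRCm38.p6, from 250 bases before to 50 bases after the start, were matched for 6 of the 10 members: Cxcl1, Cxcl2, Cxcl9, Cxcl10, Ccl28 and Cx3cl1. On both strands, these windows were searched for the standard 10-letter consensus of NF-κB sites and for the core of the interferon-stimulated response element, which is GAAA, any 2 bases and GAAA. The NF-κB consensus was present in 8.46% of all 32851 windows and in 3 of the 6 member windows. The interferon-type letters were present in 3.44% of all windows and in 1 of the 6. Each stretch below is the 220 bases that end just before the earliest annotated start, written 5′ to 3′ on the strand of the gene, with matches in capitals. The stretches are chr5:90891021-90891240 (plus strand) for Cxcl1, chr5:90903651-90903870 (plus) for Cxcl2, chr5:92348890-92349109 (minus) for Cxcl10 and chr13:119623599-119623818 (plus) for Ccl28.
Cxcl1: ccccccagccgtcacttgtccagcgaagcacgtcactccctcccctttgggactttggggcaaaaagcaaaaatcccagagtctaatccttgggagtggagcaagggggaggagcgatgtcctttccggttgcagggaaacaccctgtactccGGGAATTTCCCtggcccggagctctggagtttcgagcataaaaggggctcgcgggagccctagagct
Cxcl2: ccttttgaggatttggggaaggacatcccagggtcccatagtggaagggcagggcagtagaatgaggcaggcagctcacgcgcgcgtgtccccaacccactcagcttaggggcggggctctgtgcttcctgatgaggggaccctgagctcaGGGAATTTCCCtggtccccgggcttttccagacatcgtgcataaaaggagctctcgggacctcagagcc
Cxcl10: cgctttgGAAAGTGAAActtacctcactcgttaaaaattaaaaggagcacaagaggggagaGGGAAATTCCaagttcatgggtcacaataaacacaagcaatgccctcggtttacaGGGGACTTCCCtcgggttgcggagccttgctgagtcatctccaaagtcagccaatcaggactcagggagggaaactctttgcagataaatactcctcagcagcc
Ccl28: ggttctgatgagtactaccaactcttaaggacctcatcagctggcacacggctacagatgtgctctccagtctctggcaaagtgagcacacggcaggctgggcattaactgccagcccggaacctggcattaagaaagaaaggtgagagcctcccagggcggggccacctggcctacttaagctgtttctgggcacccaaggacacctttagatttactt
In Cxcl1 and Cxcl2 the capitals are the same run, GGGAATTTCCC, in which matches on the 2 strands overlap by all but 1 base. It begins 71 bases before the RefSeq start of Cxcl1 and 97 bases before that of Cxcl2. Cxcl10 has 2 separate NF-κB-type stretches, the second and the third in capitals, beginning 159 and 104 bases before the start. Its first capitals are the interferon-type match, beginning 213 bases before the start. The windows of Cxcl9, Ccl28 and Cx3cl1 held neither set of letters. A match describes the letters only; binding was not measured.

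The members covered a wide range of levels in colon (plot of TPM by gene). Cx3cl1 and Ccl28 together held 82.9 to 86.7% of the summed TPM of the 10 genes. Both lay at 46.5 TPM or more in every library. Neither was above the other throughout, since Cx3cl1 was the higher in 3 of 6 libraries. Cxcl16 followed at 7.97 to 11.1 TPM and Cxcl5 at 2.92 to 7.86 TPM, with Cxcl16 above Cxcl5 in all 6 libraries. Cxcl10, Ccl7, Ccl2 and Cxcl1 had ranges that overlapped with their neighbours in this order, and their means over the 6 libraries were 2.30, 1.88, 1.38 and 1.08 TPM. Cxcl9 and Cxcl2 were lowest, with means of 0.322 and 0.184 TPM. These last members were below the mean of 1 TPM required for testing, so 8 of the 10 were tested and Cxcl9 and Cxcl2 are given by their values.

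**Figure D1:**
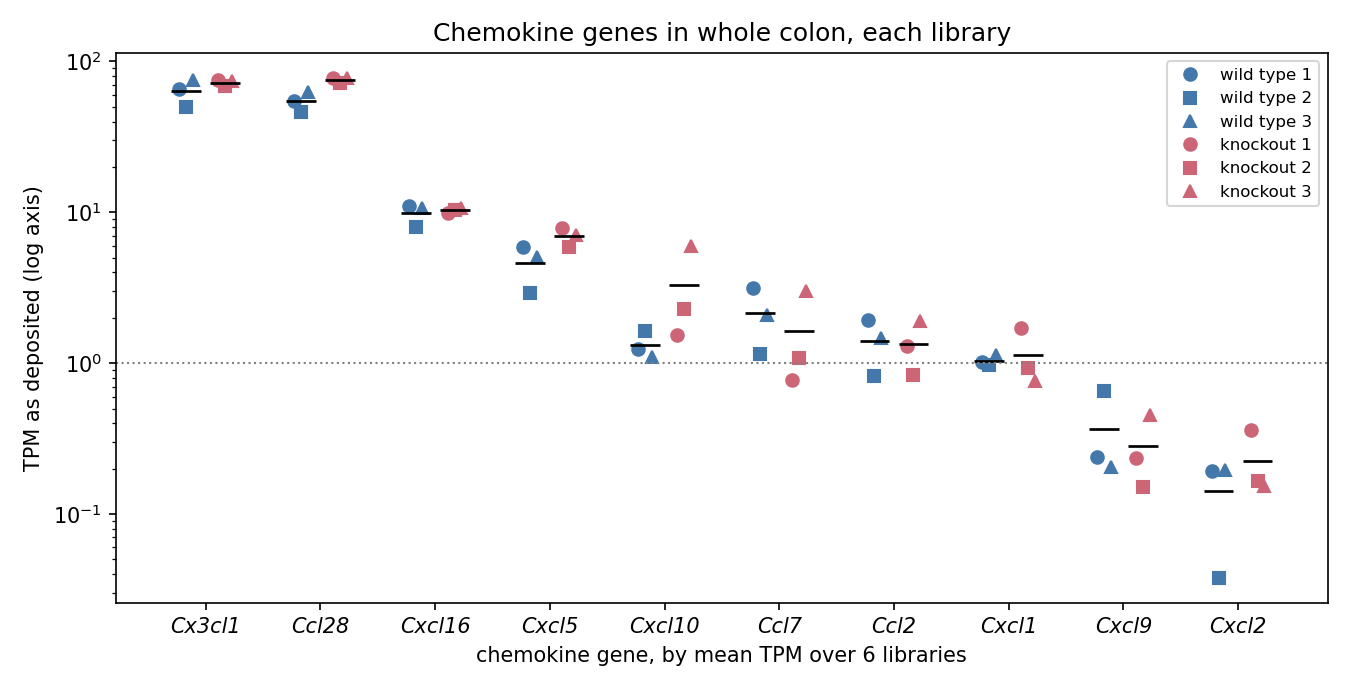
TPM as deposited (log axis) of the 10 chemokine genes in each library, wild type in blue and knockout in red, with a marker shape per replicate number, a black bar at each group mean and a dotted line at 1 TPM, the minimum mean for testing. Cx3cl1 and Ccl28 sit near the top at 46.5 TPM or more, and Cxcl9 and Cxcl2 lie below the line in every library.

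The comparison of genotypes asks whether these genes differ in unchallenged colon without TNFR1. By limma on log2(TPM + 0.5) over 14248 genes, none of the 8 tested members passed a Benjamini-Hochberg adjusted p of 0.05, where 0.267% of all genes did. After scaling none passed either, where 0.0421% of all genes did. At an unadjusted p below 0.05, Ccl28, Cxcl5 and Cxcl10 were higher in knockout, against 1.72% of all genes, and no member was lower, against 1.97%. After scaling the count was 2 higher (Ccl28 and Cxcl5) against 5.6% of all genes and none lower against 5.74%. Over the 8 members the median log2 fold change was 0.14 (0.11 after scaling) and 6 were positive, while for all genes tested the median was 0.02 (-0.0027 after scaling) and 55.7% were positive. Fold changes on this scale understate differences of genes with low values.

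**Figure D2:**
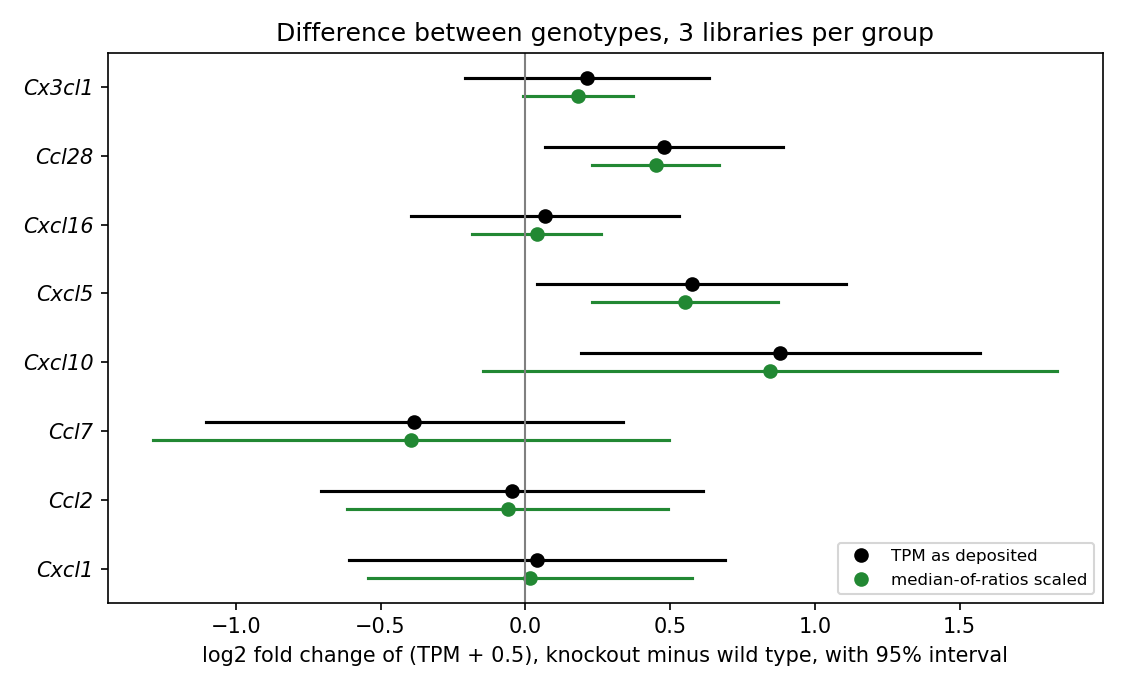
Log2 fold change of TPM + 0.5, knockout minus wild type, for the 8 tested chemokines with the 95% interval of limma (3 libraries per group), from TPM as deposited (black) and after median-of-ratios scaling (green). Intervals of Ccl28 and Cxcl5 lie above 0 in both, that of Cxcl10 only as deposited, and the adjusted p-values of all 8 lie above 0.05.

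Cxcl1, Cxcl2 and Cxcl5 are neutrophil-attracting chemokines that act through CXCR2. Cxcl5 (ENSMUSG00000029371, mm10 chromosome 5, 90759360 to 90761624), which in mouse is known from epithelial cells, was the most abundant of the 3. It measured 5.91, 2.92 and 5.04 TPM in wild-type colon and 7.86, 5.88 and 7.02 TPM in knockout colon. Replicates 1 and 3 of the knockout were above all wild-type libraries, while knockout replicate 2 lay just under wild-type replicate 1. The means were 4.62 ± 1.54 and 6.92 ± 0.993 TPM (SD, n = 3; exact permutation p = 0.2, and 3 against 3 cannot go below 0.1). The log2 difference was 0.57 ± 0.26 (SE; limma adjusted p = 0.9999). The scaled values were 5.22, 3.72 and 4.59 against 7.40, 6.41 and 6.59 TPM, which no longer overlapped. The scaled log2 fold change was 0.55 with a 95% interval of 0.23 to 0.87 (limma adjusted p = 0.334). Without wild-type replicate 2 it was 0.31 as deposited (limma adjusted p = 0.633).

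Cxcl1 (ENSMUSG00000029380, chromosome 5, 90891241 to 90893115) and Cxcl2 (ENSMUSG00000058427, chromosome 5, 90903871 to 90905938) lie next to each other and are classical acute targets of TNF and NF-κB. Cxcl1 measured 1.02, 0.967 and 1.13 TPM in wild-type colon and 1.71, 0.923 and 0.758 TPM in knockout colon. Knockout replicate 1 was above every wild-type library and knockout replicates 2 and 3 were below every one, so the wild-type values lay between them. Its log2 fold change was 0.04, with a 95% interval of -0.61 to 0.69, and 0.02 after scaling. A difference within that interval was not resolved. Cxcl2 was listed at 0.194, 0.0379 and 0.194 TPM in wild-type colon and 0.361, 0.164 and 0.153 TPM in knockout colon, again with knockout replicate 1 highest. Of the 31-base words in its measured transcript, 7.41% also occur in Cxcl3, so reads can be shared between them. Both genes carry the GGGAATTTCCC run shown above, and their group means were 1.04 and 1.13 TPM for Cxcl1 and 0.142 and 0.226 TPM for Cxcl2, wild type first.

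Cxcl9 and Cxcl10 are interferon-induced ligands of CXCR3 that attract activated T and NK cells. Cxcl10 (ENSMUSG00000034855, chromosome 5, 92346638 to 92348889) measured 1.24, 1.62 and 1.10 TPM in wild-type colon and 1.53, 2.30 and 5.99 TPM in knockout colon. Knockout replicate 3 stood far above the rest and knockout replicate 1 was inside the range of wild type, so the groups overlapped. The means were 1.32 ± 0.269 and 3.28 ± 2.38 TPM (SD, n = 3; exact permutation p = 0.2). The log2 fold change was 0.88 ± 0.34 (SE; limma adjusted p = 0.806) and 0.85 after scaling (limma adjusted p = 0.49). Without knockout replicate 3 it was 0.40 (limma adjusted p = 1.0), and without knockout replicate 1 it was 1.24 and passed the threshold (limma adjusted p = 0.0471), which it did not when scaled as well (1.23, limma adjusted p = 0.349). The 1.06 TPM of a short retained-intron transcript, ENSMUST00000138169, were part of the value in knockout replicate 3, and this transcript was listed at 0 in the other 5 libraries. The coding transcript ENSMUST00000038816 had 4.93 TPM there and 1.10 to 2.30 TPM elsewhere. Of the 31-base words of the Cxcl10 transcripts, 6.42% also occur in Art3.

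In TPM as deposited, the other interferon-γ-induced genes showed the same library on top (plot of Cxcl10 beside these genes). Of a list of 19 such genes, 18 were tested, and all 18 were highest in knockout replicate 3. Within wild type, 11 of the 18 were highest in replicate 2, the library in which Cxcl10 was also highest of the 3. The shared top library depended on the scaling. Wild-type replicate 2 was often close, as for Gbp2 (31.98 TPM, against 36.48 in knockout replicate 3). Division by the factors of these libraries (0.786 and 1.07) would put wild-type replicate 2 on top for most of the list. Scaled Cxcl10 stayed highest in knockout replicate 3 (5.62 TPM, against 2.065 in wild-type replicate 2). None of the 18 passed between genotypes by limma, as deposited or after scaling, and none had an unadjusted p below 0.05 as deposited. Their median log2 fold change was 0.02, and -0.02 after scaling, against 0.02 and -0.0027 for all genes, and the number with positive values was 11 as deposited and 6 after scaling. The genes with the smallest p were Ciita, the master regulator of MHC class II (1.88 ± 0.123 TPM in wild type, 1.29 ± 0.939 TPM in knockout colon), the peptide transporter subunit Tap2 (19.96 ± 1.90 and 22.98 ± 4.598 TPM) and the GTPase Irgm2 (11.6 ± 3.33 and 11.2 ± 5.94 TPM). Interferon-γ itself (Ifng) was listed at 0.157 TPM or less in every library. The part of the interferon-induced genes in the Cxcl10 difference was not tested.

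**Figure D3:**
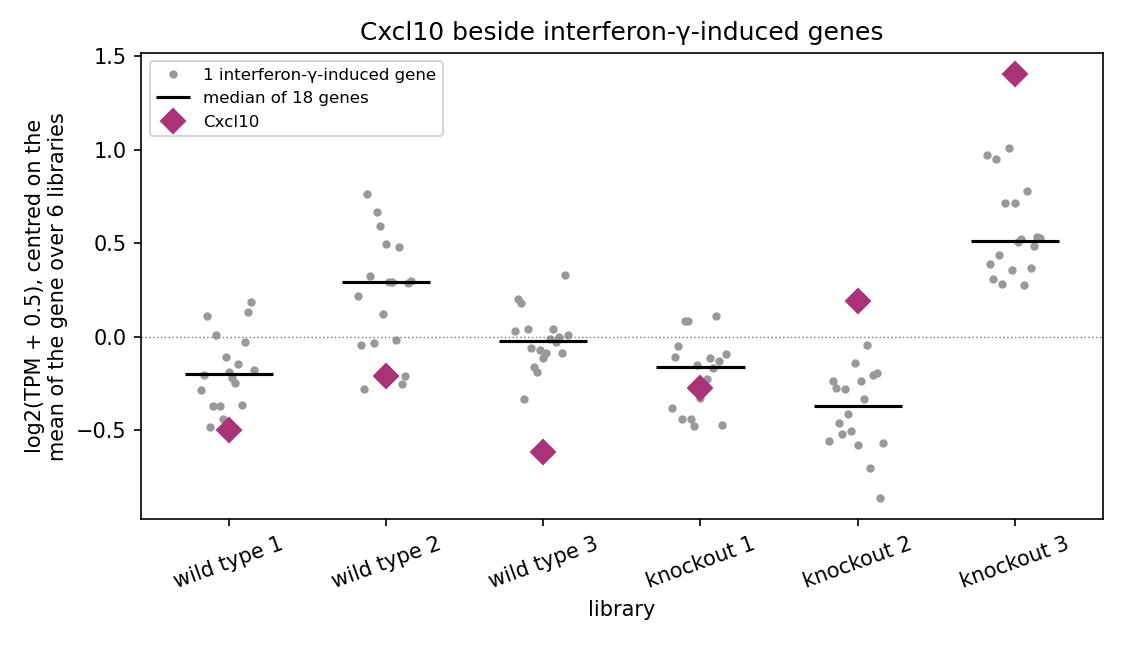
Log2(TPM + 0.5) of Cxcl10 (diamonds) and of 18 interferon-γ-induced genes (grey points, black bar at their median) in each library, each gene centred on its own mean over the 6 libraries. Values are from TPM as deposited, without scaling. Knockout replicate 3 is highest for Cxcl10 (centred value 1.40) and for the median of the list (0.51), while knockout replicate 2 is second for Cxcl10 and lowest for the list (-0.37).

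Cxcl9 (ENSMUSG00000029417, chromosome 5, 92321347 to 92328079) was listed at 0.237, 0.651 and 0.204 TPM in wild-type colon and 0.235, 0.152 and 0.456 TPM in knockout colon. Its highest values were in wild-type replicate 2 and knockout replicate 3, which were also the libraries with the highest medians of the interferon list. The groups overlapped (exact permutation p = 0.6), and the means were 0.364 ± 0.249 and 0.281 ± 0.157 TPM (SD, n = 3). The ratio of knockout to wild-type means was 0.771 for Cxcl9 and 2.48 for Cxcl10, and in both genes the libraries of the groups overlapped. Both ratios moved when 1 library was left out. Without wild-type replicate 2 that of Cxcl9 was 1.27, on the other side of 1. Without knockout replicate 3 that of Cxcl10 was 1.45, still above 1, and knockout replicate 2 also lay above every wild-type library for Cxcl10.

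Ccl2 and Ccl7 are monocyte-attracting ligands of CCR2 that lie side by side on chromosome 11. Ccl2 (ENSMUSG00000035385, 82035571 to 82037453) measured 1.94, 0.819 and 1.46 TPM in wild-type colon and 1.298, 0.830 and 1.91 TPM in knockout colon. The means differed little, at 1.41 ± 0.565 and 1.35 ± 0.539 TPM (SD, n = 3; exact permutation p = 0.8). The log2 difference was -0.05, with a 95% interval of -0.71 to 0.61. Ccl7 (ENSMUSG00000035373, 82045712 to 82047525) measured 3.16, 1.16 and 2.10 TPM in wild-type colon and 0.773, 1.09 and 3.02 TPM in knockout colon. Knockout replicates 1 and 2 lay below all wild-type libraries and replicate 3 lay near the top of them. Its log2 fold change was -0.38, with a 95% interval of -1.10 to 0.34 (limma adjusted p = 0.9999). Without knockout replicate 3 it was -0.82 (limma adjusted p = 0.765). In both groups the library order was similar for the pair: wild-type replicate 1 was the highest wild-type library and knockout replicate 3 the highest knockout library for both genes. Ccl7 varied 4.09-fold from its lowest to its highest library, and Ccl2 2.37-fold.

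Ccl28 is a chemokine of mucosal epithelium that attracts IgA-producing plasma cells through CCR10 and also has antimicrobial activity. Ccl28 (ENSMUSG00000074715, chromosome 13, 119623819 to 119654359) measured 54.4, 46.5 and 63.0 TPM in wild-type colon and 77.7, 72.5 and 77.4 TPM in knockout colon. Every knockout library was above every wild-type library. Ccl28 was the 1 member of 8 tested without overlap in TPM as deposited, where 3.17% of all genes had knockout higher without overlap; no member was lower without overlap, where 1.82% of all genes were. The means were 54.6 ± 8.26 and 75.9 ± 2.94 TPM (SD, n = 3), a ratio of 1.39 (exact permutation p = 0.1, the floor for 3 against 3). The log2 fold change was 0.48 ± 0.20 (SE; limma adjusted p = 0.9999). After scaling it was 0.45 ± 0.093 (SE), with a 95% interval of 0.23 to 0.67 (limma adjusted p = 0.304). The difference therefore did not pass across all genes, although it had the same direction in all 19 alternatives (0.35 to 0.59).

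Ccl28 begins 215 kb from the end of Nnt, a mitochondrial transhydrogenase gene that carries a deletion in C57BL/6J and is intact in other substrains. Nnt measured 11.4, 6.87 and 10.2 TPM in wild-type colon and 29.0, 25.8 and 27.5 TPM in knockout colon, with a log2 fold change of 1.51 (limma adjusted p = 9.01e-04, and 0.00247 after scaling). For Ccl28, a difference between the groups in inherited sequence around this locus and the loss of TNFR1 cannot be told apart with these samples. A difference in genetic background beyond this locus was not tested. For the other genes compared here, it likewise cannot be told apart from the loss of TNFR1.

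**Figure D4:**
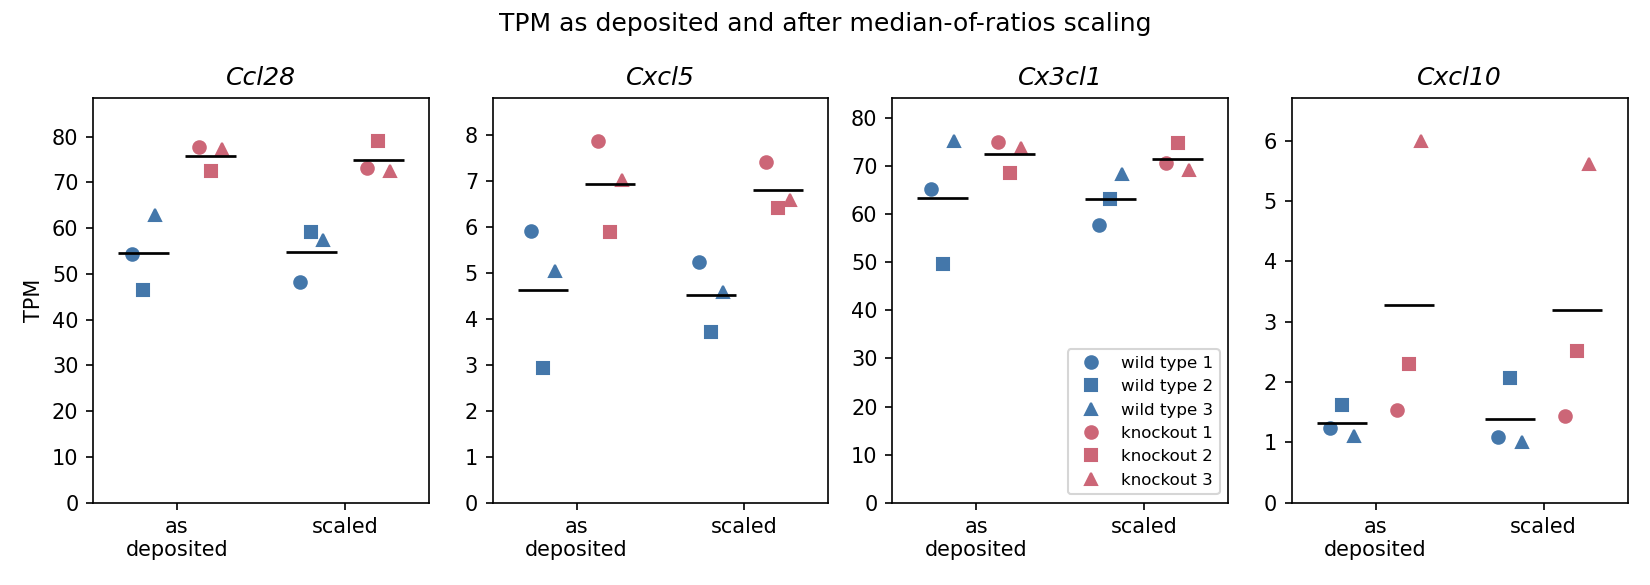
TPM of Ccl28, Cxcl5, Cx3cl1 and Cxcl10 in each library, as deposited beside scaled by median-of-ratios factors, wild type in blue and knockout in red, with a black bar at each group mean and axes from 0. Scaling lifts wild-type replicate 2; Ccl28 is separated in both versions, Cxcl5 and Cx3cl1 only after scaling, and Cxcl10 in neither.

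Cx3cl1 and Cxcl16 are made as transmembrane proteins and released as soluble ligands by the proteases ADAM10 and ADAM17. Cx3cl1 (fractalkine; ENSMUSG00000031778, chromosome 8, 94772009 to 94782427) binds CX3CR1 on intestinal macrophages. It measured 65.3, 49.7 and 75.2 TPM in wild-type colon and 75.1, 68.7 and 73.8 TPM in knockout colon. The groups overlapped, with wild-type replicate 3 the highest of all, and the means were 63.4 ± 12.9 and 72.5 ± 3.38 TPM (SD, n = 3; exact permutation p = 0.4). Its log2 fold change was 0.21, with a 95% interval of -0.21 to 0.63. After scaling the values were 57.7, 63.2 and 68.5 against 70.7, 74.8 and 69.2 TPM, without overlap, and the log2 fold change was 0.18 (limma adjusted p = 0.453). After scaling the groups did not overlap, with knockout higher, for Ccl28, Cxcl5 and Cx3cl1, which is 3 of 8 tested members where 9.31% of all genes did so. None was lower without overlap after scaling, where 9.17% of all genes were.

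A large share of the Cx3cl1 total was not in its coding transcript (plot of Cx3cl1 transcripts). The coding transcript ENSMUST00000034230 (3315 bases) measured 34.9 ± 5.32 TPM in wild-type colon and 40.1 ± 2.67 TPM in knockout colon (SD, n = 3). A 780-base transcript whose annotated class is nonsense-mediated decay, ENSMUST00000150307, measured 18.0, 15.2 and 29.6 TPM in wild-type colon and 26.7, 27.98 and 29.05 TPM in knockout colon. It held 27.6, 30.6 and 39.4% of the gene total in wild type and 35.6, 40.7 and 39.4% in knockout. A shorter one of the same class, ENSMUST00000135970, ran from 8.29 TPM in wild-type replicate 1 to a listed 0 in knockout replicate 3. Transcripts of 1 gene share exons, so the split between them is an estimate. None of the tested member transcripts passed limma over 31056 transcripts, where 0.0419% did, and the 1 with an unadjusted p below 0.05 was that of Ccl28, where 5.02% of all transcripts had one.

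**Figure D5:**
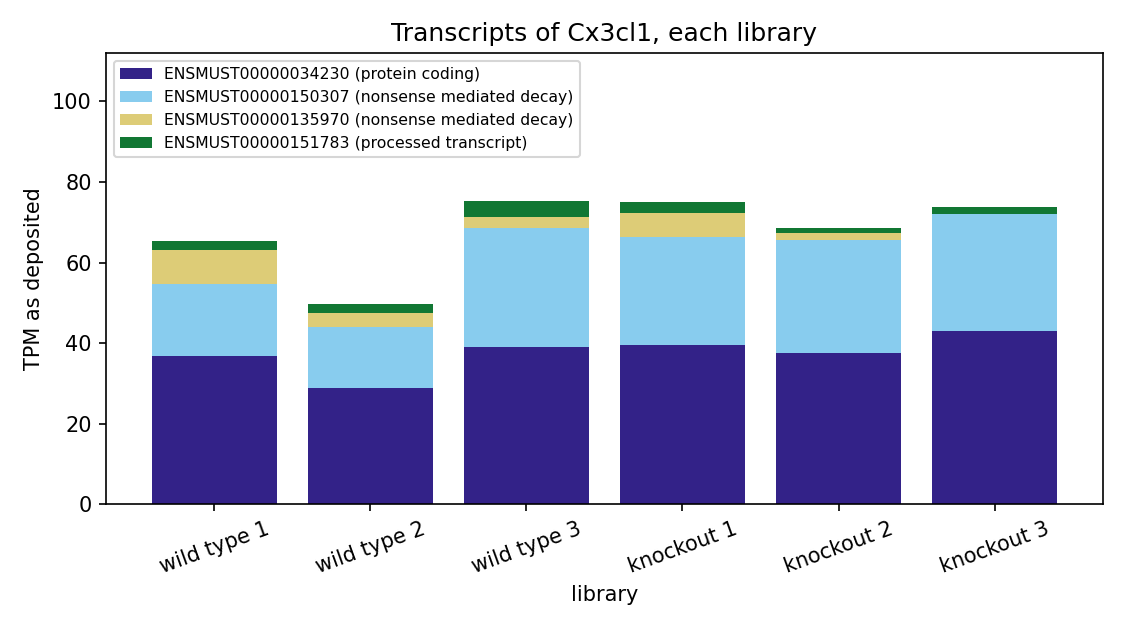
TPM as deposited of the 4 measured Cx3cl1 transcripts, stacked for each library, with the annotated class of each. The coding transcript (dark) and ENSMUST00000150307 (light blue) make up most of each bar, and wild-type replicate 2 has the lowest total at 49.7 TPM.

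Cxcl16 (ENSMUSG00000018920, chromosome 11, 70453983 to 70459984), the ligand of CXCR6, had the smallest fold from lowest to highest library of the 10 members (1.39). It measured 11.1, 7.97 and 10.6 TPM in wild-type colon and 9.85, 10.3 and 10.7 TPM in knockout colon, all overlapping. The means were 9.89 ± 1.68 and 10.3 ± 0.42 TPM (SD, n = 3; exact permutation p = 0.9). The log2 fold change was 0.07 as deposited, with a 95% interval of -0.40 to 0.53, and 0.04 after scaling, with an interval of -0.18 to 0.26. Of the 31-base words of its transcripts, 18.5% also occur in transcripts of Zmynd15, so reads can be shared between them. No shared word was found for Cx3cl1, Cxcl1, Ccl2 or Ccl7. Adam10 measured 40.1 ± 7.27 TPM in wild-type colon and 42.7 ± 3.38 TPM in knockout colon, and Adam17 18.5 ± 4.91 and 20.1 ± 3.60 TPM. In the list of 7 genes that process or present chemokines, none passed by limma as deposited or after scaling, and none had an unadjusted p below 0.05 as deposited. After scaling, Sdc1 had an unadjusted p below 0.05. Their median log2 fold change was 0.14, and 0.11 after scaling. The smallest p-values belonged to the syndecan Sdc1 (111.3 ± 33.0 and 133.2 ± 10.6 TPM), the CXCL10-cleaving protease Dpp4 (11.8 ± 3.01 and 12.96 ± 1.33 TPM) and the ADAM17 cofactor Rhbdf2 (9.92 ± 2.78 and 10.8 ± 1.67 TPM).

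The receptors of these ligands were sparse in whole colon. In bulk tissue, fewer cells of a type and less RNA per cell cannot be told apart. Cxcr2, the receptor of Cxcl1, Cxcl2 and Cxcl5, measured 1.295, 0.875 and 1.26 TPM in wild-type colon and 0.892, 0.474 and 0.917 TPM in knockout colon. As deposited, knockout replicates 1 and 3 lay just above the lowest wild-type library, replicate 2, so the groups overlapped. Division by the scaling factors would put every knockout library below every wild-type library. Of all genes tested, 9.17% were lower without overlap after scaling. Cxcr2 was below the mean needed for testing. Cxcr3, the receptor of Cxcl9 and Cxcl10, lay between 0.138 and 0.397 TPM in the 6 libraries. Ccr2, which binds Ccl2 and Ccl7, measured 2.29, 1.96 and 2.99 TPM in wild-type colon and 1.78, 1.31 and 2.30 TPM in knockout colon (log2 fold change -0.35, limma adjusted p = 0.9999). Ccr10 lay between 0.265 and 0.756 TPM, Cxcr6 between 0.458 and 0.60 TPM, and Cx3cr1 between 2.17 and 3.56 TPM. Thus Cx3cl1 and Ccl28, the most abundant ligands, stood at far higher TPM than Cx3cr1 and Ccr10 in the same libraries. Of the atypical receptors that take up chemokines, Ackr1 measured 4.64 ± 1.14 TPM in wild-type colon and 3.79 ± 1.123 TPM in knockout colon, and Ackr2 0.56 ± 0.247 and 0.704 ± 0.265 TPM.

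Of 23 receptor genes listed, 10 were tested. None passed by limma as deposited or after scaling, and none had an unadjusted p below 0.05 as deposited. Of these, 2 had positive log2 fold changes, and the median was -0.20 (-0.22 after scaling), beside 0.02 for all genes tested. The smallest p-value was that of Cxcr5, the receptor of follicular B and T cells (1.39 ± 0.243 and 0.781 ± 0.703 TPM; limma adjusted p = 0.9999), followed by Ccr2 and Ackr1.

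Genes that lie upstream of these chemokines were read next. Of 24 listed inducers, receptors and NF-κB components, 18 were tested and none passed by limma as deposited or after scaling; none had an unadjusted p below 0.05 as deposited. After scaling 3 of the 18 were higher at an unadjusted p below 0.05 (Relb, Tnfaip3 and Nfkb2), where 5.6% of all genes were, and 2 were lower (Tnfrsf1a and Ikbkb), where 5.74% were. The median log2 fold change was 0.06, and 0.03 after scaling. The inducing cytokines were scarce: Tnf lay between 0.379 and 0.771 TPM, Il1b between 0.348 and 1.16 TPM, and Il6 and Il17a at 0.104 TPM or less. After Tnfrsf1a, the smallest p-values were those of the NF-κB subunit gene Relb (48.7 ± 6.11 TPM in wild type, 60.5 ± 4.75 TPM in knockout colon; log2 fold change 0.31, limma adjusted p = 0.9999) and of Tnfaip3, the gene for the NF-κB inhibitor A20 (20.45 ± 2.54 and 24.8 ± 1.24 TPM; 0.28, adjusted p = 0.9999).

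Among 28 further chemokine genes, 18 were tested, 1 was lower in knockout and none was higher, where 0.267% of all genes passed in either direction; after scaling none passed, where 0.0421% did. This was Cxcl13, the B cell chemokine of lymphoid follicles, which fell from 9.23, 7.31 and 12.2 TPM in wild type to 3.61, 2.63 and 4.76 TPM in knockout colon. Its log2 fold change was -1.28 ± 0.26 (SE; limma adjusted p = 0.0191), and it did not pass after scaling (limma adjusted p = 0.157) although the fold change was -1.305. Without wild-type replicate 2 the adjusted p was 0.141, and without wild-type replicate 3 it was 0.0739, with fold changes of -1.45 and -1.10. At an unadjusted p below 0.05, Ccl19 was also lower (2.02 ± 0.307 and 0.842 ± 0.86 TPM) and Ppbp higher (19.99 ± 13.5 and 37.1 ± 5.62 TPM), beside 1.97% lower and 1.72% higher of all genes. After scaling 4 were lower, with Cxcl12 and Ccl21a added, where 5.74% of all genes were. Then 2 were higher, with Ccl6 added, where 5.6% of all genes were. Of the 18, 4 had positive log2 fold changes, with a median of -0.10 (-0.12 after scaling).

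Markers of other cell types were read beside these values. Of 10 neutrophil genes, 4 were tested, all had positive log2 fold changes and S100a9 rose (8.52 ± 3.11 to 26.1 ± 11.2 TPM; limma adjusted p = 0.00656, and 0.273 after scaling). Without wild-type replicate 2 its adjusted p was 0.508. Of the 4 tested, 3 were higher at an unadjusted p below 0.05, as deposited and after scaling, where 1.72% and 5.6% of all genes were. These were S100a9, S100a8 (10.7 ± 3.11 to 23.6 ± 7.28 TPM) and Ltf (6.17 ± 4.69 to 13.2 ± 2.31 TPM). The granule genes Elane, Ngp and Retnlg were each listed at a mean of 0.0585 TPM or less in both groups, and the receptor gene Csf3r at 0.289 and 0.348 TPM. Mpo was listed at means of 0.0897 and 0.122 TPM and Camp at 0.218 and 0.18 TPM, wild type first. Whether neutrophil numbers differed was not tested. The summed level of the list was 153.1 to 221 TPM in wild-type colon and 228.4 to 256.1 TPM in knockout colon, most of it Ly6g (165.3 ± 24.9 and 179.5 ± 6.21 TPM). Macrophage and monocyte markers summed to 216.2 to 328.8 TPM in wild-type colon and 209.9 to 332.7 TPM in knockout colon, with Lyz2 the most abundant and 0 of 9 tested genes past the threshold. As deposited none had an unadjusted p below 0.05, and after scaling 1 did (Cd14, higher). T and NK cell markers were low, at 4.82 to 8.21 TPM for the sum of 11 genes in wild type and 5.04 to 8.56 TPM in knockout colon; Cd4 was the most abundant over the 6 libraries (1.265 ± 0.366 and 1.34 ± 0.438 TPM), with Cd2 above it in the wild-type mean (1.445 and 0.893 TPM). Of these 2 tested genes neither had an unadjusted p below 0.05 as deposited, and Cd2 did after scaling.

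The tissue around the mucosa differed between libraries as well. Squamous epithelium markers summed to 221.8 to 926.9 TPM in wild-type colon and 681.9 to 926.0 TPM in knockout colon, with Krt10 the most abundant and 4 of 9 genes higher in knockout at an unadjusted p below 0.05 (2 after scaling). For this and the next lists, 1.72% of all genes were higher at that p as deposited and 5.6% after scaling. Adipocyte markers summed to 54.0 to 151.6 TPM and 186.4 to 256.5 TPM without overlap; Fabp4 was the most abundant, all 7 genes were higher at an unadjusted p below 0.05 as deposited and after scaling, and Cfd rose (31.5 ± 16.7 to 82.7 ± 12.95 TPM; limma adjusted p = 0.00817, 0.286 after scaling and 0.139 without wild-type replicate 2). Skeletal muscle markers, Tnnt3 at their head, ran from 160.6 to 2558 TPM in wild-type colon and from 963.7 to 2580.0 TPM in knockout colon, and all 8 genes were higher at an unadjusted p below 0.05 as deposited but 1 (Myh4) after scaling, with none past the threshold in either. In TPM as deposited, wild-type replicate 2 was lowest for all 3 of these lists, as it was for Cxcl5, Ccl28, Cx3cl1, Cxcl16, Ccl2 and Cxcl2. Division by the scaling factors would leave it lowest for the 3 lists. After scaling, of these members only Cxcl5 (3.72 TPM) and Cxcl2 (0.0482 TPM) were still lowest in that library. For Ccl28 (59.1 TPM) and Cxcl16 (10.1 TPM) wild-type replicate 2 was then the highest wild-type library. Colon epithelium markers (Krt8 the most abundant) summed to 6429 to 8893 TPM in wild-type colon and 8168 to 8887 TPM in knockout colon. Of these 10 genes, 8 had positive log2 fold changes, with a median of 0.19 (0.155 after scaling). As deposited 0 of the 10 had an unadjusted p below 0.05, and after scaling 2 were higher at that p. Marker sums of fibroblasts (Dcn), endothelium (Pecam1) and smooth muscle (Tagln) overlapped between genotypes. They were 578.8 to 790.3, 37.5 to 64.1 and 5773 to 8238 TPM in wild-type colon. In knockout colon they were 491.4 to 729.3, 35.9 to 60.8 and 6013 to 7187 TPM. Positive log2 fold changes were found for 0 of 7, 1 of 6 and 1 of 6 genes (0, 1 and 0 after scaling). Their medians were -0.17, -0.05 and -0.07, and -0.20, -0.07 and -0.10 after scaling. As deposited no gene of these lists had an unadjusted p below 0.05. After scaling 1 fibroblast and 1 smooth muscle gene were lower at that p, where 5.74% of all genes were. The part of these cell types in the chemokine values was not tested.

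Genes with the library pattern most like each tested member were found by the root mean square (RMS) difference of centred log2 values over the 6 libraries, among 13173 named genes. For Ccl28 they were Clca1 (RMS 0.0413), Scin (0.0454) and Themis3 (0.047). Clca1 encodes a secreted goblet cell protein and measured 564.3, 483.7 and 657.8 TPM in wild-type colon and 747.4, 723.7 and 774.1 TPM in knockout colon, in the same order of groups without overlap. For Cxcl5 the nearest were Foxa3 (0.0608), AA986860 (0.0666) and Smox (0.0745), and Foxa3, an endoderm transcription factor, measured 14.2, 8.06 and 12.2 TPM against 17.7, 13.9 and 16.5 TPM. For Cxcl10 no gene came as near: the closest was Tnip3 (0.311), which encodes an A20-binding protein, with 3.39, 3.19 and 3.80 TPM in wild-type colon and 4.68, 4.64 and 9.01 TPM in knockout colon. Syce3 (0.366) and Pif1 (0.411) came next.

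Ccl7 was nearest to Tmem158 (0.212), Igfbp2 (0.212) and Hes1 (0.218), which were likewise lowest in knockout replicate 1. Ccl2 was nearest to Dbn1 (0.0414), Trim47 (0.0625) and Cit (0.0629), and Cxcl1 to Col9a2 (0.078), Bbs7 (0.0854) and Cfap53 (0.113). Cx3cl1 was nearest to Slc7a7 (0.0295), Mapkapk3 (0.0303) and Rab27a (0.0308), and Cxcl16 to Eif2b4 (0.0179), Zfand3 (0.0206) and Map2k2 (0.0218). These small distances go with members that varied little, since the fold from lowest to highest library was 1.51 for Cx3cl1 and 1.39 for Cxcl16. Likeness here is a description over 6 libraries. For Ccl28, Cxcl5, Cx3cl1, Cxcl16 and Ccl2, the low level of wild-type replicate 2 as deposited is part of the pattern. For Cxcl10, Ccl7 and Cxcl1 that library was not the lowest.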

How the data were processed

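The authors deposited TPM per transcript. Poly(A) RNA was made into paired-end libraries with a low-input SMARTer kit, per the labels' protocols. Reads were quantified with kallisto and tested with sleuth, per the series' design text, and kallisto 0.43.1 and mm10 are named in the submitters' processing notes. Read depth per library is unknown and no interval for counting error was computed. Of 132639 lines, 1433 repeated a transcript with the same values, and each transcript was taken once; 43008 transcripts had no value and 1380 with values had no gene name. Genes averaging 1 TPM or more over the 6 libraries were tested as log2(TPM + 0.5) with limma 3.58.1 in R 4.3.3 (variance trend, Benjamini-Hochberg over all genes). Single values were compared by two-sided exact permutation tests, for which 3 against 3 cannot go below 0.1. Tested on simulated data for 14248 genes, 40 of 100 genes changed by 1 on the log2 scale and 95 of 100 changed by 2 were recovered, and 5 of 14048 unchanged genes passed. The changed genes were drawn only from those with a mean log2(TPM + 0.5) above 1, and noise was independent between genes. An offset shared by a whole library was not simulated, so these rates need not hold for the real libraries.

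Alternatives were pseudocounts of 0.1 and 1, no filter or 5 TPM, median-of-ratios scaling, rescaling over transcripts with a gene name, a replicate block and each library left out. Scaling combined with leaving out a library was added after seeing the data. Members and gene lists were chosen with earlier results of these data known. All 10 members are named. From each pathway list the genes past the threshold or the 3 with the smallest p are named, with the main receptors of the members, Adam10, Adam17, Tnfrsf1a, the most abundant gene of each cell type list, and the 3 genes nearest each member by RMS difference (predicted genes, pseudogenes and immunoglobulin segments left out). Nnt, Ifng, Tnf, Il1b, Il6, Il17a, Ccl19, Ppbp, Cxcl12, Ccl21a, Ccl6, Nfkb2, Ikbkb, Cd14, Cd2, Myh4 and single neutrophil markers were named after their values were seen. Coordinates and transcript classes are from GENCODE M21, which need not be the annotation used for quantification. Shared words of 31 bases were counted over its transcripts on either strand.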

Additional observations from a re-analysis of the deposited data

How the results depend on the processing

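No tested member passed the threshold under any alternative except Cxcl10 without knockout replicate 1 in TPM as deposited, so the count of members past it was 0 to 1 with single libraries left out. Ccl28, Cxcl5, Cxcl10 and Cx3cl1 kept a positive and Ccl7 a negative log2 fold change under all alternatives that tested them. The near-zero values changed sign under some. After rescaling over transcripts with a gene name, Cxcl1 was at -0.051 and Cxcl16 at -0.055. Without wild-type replicate 1, Ccl2 was at 0.15. Without wild-type replicate 2, Cxcl16 was at -0.073. Without knockout replicate 1, Cxcl1 was at -0.20, and without knockout replicate 2, Ccl2 was at 0.17. With single libraries left out, Cxcl1 ran from -0.20 to 0.20, Cxcl16 from -0.073 to 0.15 and Ccl2 from -0.29 to 0.17. With scaling as well, Cxcl1 was at -0.056 and Ccl2 at 0.073 without wild-type replicate 1, Cxcl1 at -0.20 without knockout replicate 1, and Ccl2 at 0.11 and Cxcl16 at -0.032 without knockout replicate 2. The Cxcl9 ratio of means, 0.771, was 1.27 without wild-type replicate 2. The cause was not tested.

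All genes past the threshold numbered 38 with TPM as deposited. There were 24 with a pseudocount of 0.1, 2 with no filter, 142 with a filter at 5 TPM, 6 after median-of-ratios scaling and 4 after rescaling over transcripts with a gene name. With single libraries left out the number ran from 19 to 307, with the low end without wild-type replicate 2 and the high end without wild-type replicate 1. With scaling as well it was 8, 21 and 5 without wild-type replicates 1, 2 and 3, and 2, 3 and 4 without knockout replicates 1, 2 and 3. Of the further chemokines the count was 1, against 0 with no filter, after scaling or after rescaling, 2 with a filter at 5 TPM, and 0 (without wild-type replicate 2) to 3 (without knockout replicate 3) with single libraries left out; with scaling as well it was 0 throughout. With the replicate block, 71 genes passed and no member; Cfd did not pass (limma adjusted p = 0.111). The numbers were not shown to pair the mice. Same-numbered libraries deviated together with correlations of 0.052, 0.132 and 0.184, and libraries of different numbers with -0.24 to 0.098. Each wild-type library was nearest to the knockout library of its own number. Knockout replicate 1, however, was nearer to wild-type replicate 3 (0.098) than to wild-type replicate 1 (0.052). At the spread of 3 mice per group, differences of the size seen for Cxcl1, Ccl2 and Ccl7 could not be resolved.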
